A study of Mus musculus with 12 samples.

Results

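The Nodal pathway and primed epiblast genes described here are Nodal, Tdgf1, Lefty1, Lefty2, Otx2, Fgf5 and Pou3f1, taken by gene symbol from the expression tables of 12 mouse RNA-Seq libraries. All 7 were found among the 20325 genes of the tables, and all 7 passed the count filter (10 or more counts in 3 or more libraries), which left 13400 genes for testing. Pre-iPSCs, which are partially reprogrammed cells that look like embryonic stem cells but have not reached pluripotency, were treated for 48 h and compared as 4 groups of 3 biological replicates, named A, B and C. The groups were DMSO (the control), ascorbic acid (AA) at 50 μg per ml, 2i, which is 1 μM of a MEK inhibitor with 3 μM of a GSK inhibitor, and both together (AA+2i). The cells of all 4 groups had been kept on irradiated feeders in embryonic stem cell medium with serum and were treated in that medium with no feeder layer. The pre-iPSC lines of the study were clonal and carry factors added for reprogramming (Oct4, Sox2, c-Myc and Klf4), and which line was sequenced is not given in the sources used here, so the replicates may be cultures of 1 clone. Expression was given as TPM (a share of all transcripts in a library, scaled for transcript length) and as counts estimated by RSEM, which summed to 16173322 to 54392719 per library with a median of 21854761. DMSO B and AA B were the deepest, so their low values rest on more counts than those of the other libraries. In DMSO A and AA A, genes of high GC content had fewer counts than in the other libraries, and the values that this touches are given beside each gene.

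Nodal is a secreted ligand of the TGF-beta family that acts through activin receptors and the co-receptor Cripto, the product of Tdgf1, to activate Smad2 and Smad3, which bind target genes together with Foxh1. Lefty1 and Lefty2 are among its targets and code for secreted antagonists that bind Nodal or its co-receptor, so that they form a negative feedback loop. In the embryo and in culture, Otx2, Fgf5 and Pou3f1 mark the passage of pluripotent cells from the naive state to the formative and primed states of the later epiblast, a passage that depends on FGF and ERK signalling and that MEK inhibition holds back.

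AA raised Otx2, Tdgf1 and Lefty2, whereas 2i lowered Tdgf1 and Otx2. With both agents Tdgf1 overlapped DMSO and did not pass, Otx2 and Lefty2 lay between their DMSO and AA levels, and Lefty1 was above DMSO. Nodal itself passed the test in none of the comparisons. Changes were called at a Benjamini-Hochberg adjusted p under 0.05 over the 13400 genes, with the quasi-likelihood test of edgeR fitted to all 4 groups at once, and all adjusted p-values below are of that test unless another is named. In RNA from whole cultures, fewer cells that express a gene and less RNA per cell cannot be told apart.

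**Figure D1:**
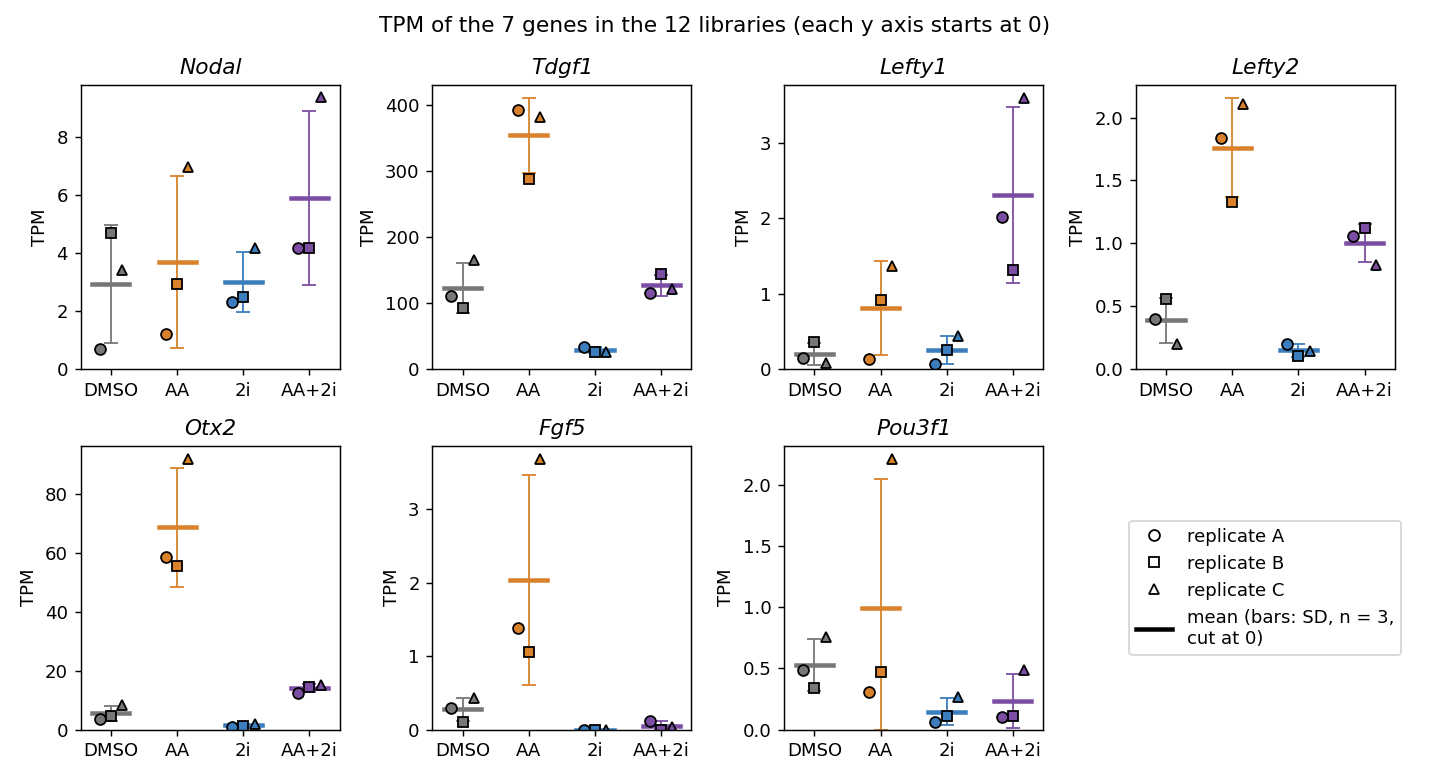
TPM (y axis, starting at 0 in each panel) of the 7 genes in the 12 libraries by treatment (x axis). Points are single libraries, with the shape giving the replicate, thick lines are means and thin bars SD over 3 replicates, cut at 0. The 3 AA libraries of Otx2 lie between 55.8 and 91.9, above all the others, and the 3 2i libraries of Tdgf1 lie between 25.4 and 33.4, below all the others.

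Nodal (chr10:60880720-60888086, plus strand, mm9, with 3 exons) was at a low level throughout. In DMSO its TPM was 0.70 in replicate A, 4.68 in B and 3.41 in C, and in AA it was 1.2, 2.91 and 6.95. In 2i the TPM of Nodal was 2.31, 2.47 and 4.18, and in AA+2i 4.16, 4.15 and 9.35. All 4 groups overlapped, replicate A was the lowest library in DMSO, AA and 2i, and replicate C was the highest in AA, 2i and AA+2i. The means were 2.93 ± 2.03 (SD, n = 3) in DMSO, 3.69 ± 2.95 in AA, 2.99 ± 1.04 in 2i and 5.89 ± 3.00 in AA+2i. The log2 fold change against DMSO was 0.41 (SE 0.72, adjusted p = 0.956) in AA, 0.25 (SE 0.73, adjusted p = 0.861) in 2i and 1.30 (SE 0.73, adjusted p = 0.275) in AA+2i. The last had a 95% interval from −0.30 to 2.89, so neither no change nor a rise of several fold was separated from it at this depth and spread. The AA+2i library exceeded the DMSO library of the same letter in 3 of 3 letters, by 2.49, 0.11 and 1.72 in log2 CPM (counts scaled to library size) for A, B and C.

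The transcripts of Nodal are 55.9% G and C, a higher share than in 79.2% of the tested genes, and the libraries differed in how their counts depended on that share. At the GC content of Nodal, the smoothed deviation of a library's log2 CPM from the average library was −0.99 in DMSO A, −0.78 in AA A and 0.59 in AA+2i C. These are the libraries in which Nodal itself was lowest and highest. When a GC curve per library was taken out, the change of Nodal with AA+2i was 0.82 (SE 0.44, adjusted p = 0.205), and those with AA and 2i were 0.17 (adjusted p = 0.914) and 0.01 (adjusted p = 0.992).

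Tdgf1 (chr9:110842114-110848662, minus strand, with 6 exons) had the highest level of the 7 genes in every group. Its TPM in DMSO was 111, 91.6 and 165 in A, B and C, and in AA it was 391.9, 288 and 381. With 2i the TPM fell to 33.4, 25.5 and 25.4, and with AA+2i it was 114, 144 and 121. All AA libraries lay above and all 2i libraries below every DMSO library, whereas AA+2i overlapped DMSO. The mean TPM was 2.89-fold higher in AA (354 ± 57.2, n = 3) than in DMSO (123 ± 38.3) and 4.36-fold lower in 2i (28.1 ± 4.59). These were log2 fold changes of 1.53 (SE 0.27, adjusted p = 0.0180) and −1.97 (SE 0.27, adjusted p = 0.00257). With AA+2i the mean was 127 ± 15.5, and the log2 fold change of 0.23 (SE 0.26, adjusted p = 0.551) had a 95% interval from −0.34 to 0.80. It was 0.53 (SE 0.28, adjusted p = 0.209) with a GC curve per library taken out. The rise with AA missed the threshold without DMSO A, without DMSO B and without AA C (adjusted p from 0.0560 to 0.0785), with the log2 fold change between 1.29 and 1.86 over the 12 single omissions, and in a model of only the AA and DMSO libraries (0.236). That model called 0 of all 13400 genes higher and 0 lower. Leaving out any 1 replicate letter also lost the rise with AA (adjusted p from 0.125 to 0.593). The fall with 2i passed without any 1 of the 12 libraries and was lost without letter B or letter C.

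The 250 bases before the annotated start of Tdgf1 and of Otx2, the pair of genes that moved in both single treatments, are shown because of the motifs they hold. They were taken from the RefSeq promoter table (GRCm38.p6) and placed on mm9 by an exact match, each at 1 site. The table holds 4 windows for Otx2, and the one at the annotated start is shown and was searched. The motifs searched on both strands were a core of the Foxh1 site (AATNNACA), the SMAD box (CAGAC), a TCF/LEF site (ATCAAAG), the bicoid site that OTX proteins bind (TAATCC), an ETS site (CGGAAG) and the octamer (ATGCAAAT). Capitals mark the matches.
Tdgf1, chr9:110848663-110848912, minus strand: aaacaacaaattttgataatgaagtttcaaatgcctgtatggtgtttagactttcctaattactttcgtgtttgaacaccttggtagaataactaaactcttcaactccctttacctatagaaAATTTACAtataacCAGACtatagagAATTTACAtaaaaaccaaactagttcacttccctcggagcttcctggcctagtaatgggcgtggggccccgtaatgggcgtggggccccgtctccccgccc
Otx2, chr14:49287320-49287569, minus strand: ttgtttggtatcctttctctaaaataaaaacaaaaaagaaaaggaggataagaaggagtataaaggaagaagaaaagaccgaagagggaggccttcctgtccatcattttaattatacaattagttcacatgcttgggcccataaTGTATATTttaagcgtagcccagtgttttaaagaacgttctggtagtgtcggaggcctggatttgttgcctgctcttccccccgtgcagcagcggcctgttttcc
The window of Tdgf1 holds 2 matches of the Foxh1 core that begin 127 and 101 bases before the start, with a SMAD box between them at 113. The shown window of Otx2 holds 1 Foxh1 core, on the strand opposite to the gene, at 105 bases. Of 32851 promoter windows of the same length, 10.9% hold the Foxh1 core, 42.2% the SMAD box, 3.21% the TCF/LEF site, 6.25% the bicoid site, 13.6% the ETS site and 1.60% the octamer. The windows of Nodal and Fgf5 hold none of the 6. No window was read for Lefty1, Lefty2 and Pou3f1. A match describes these letters and is not a measured binding site.

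Lefty1 (chr1:182865153-182868531) and Lefty2 (chr1:182823239-182829234) lie 35918 bp apart on the plus strand and are close copies of each other. Their coding sequences are both 1107 bp long and identical at 91.9% of positions, so reads from the stretches they share cannot be assigned to either gene. Of all 90-base windows, the length of the trimmed reads, 7.38% of those of Lefty1 and 4.74% of those of Lefty2 occur in another gene. Of 28-base windows, the length of the alignment seed, 26.7% of those of Lefty1 and 18.2% of those of Lefty2 do. The alignment also allowed mismatches. The quantification divided shared reads between the genes by estimate, so the split between them is uncertain at least to the extent of the 90-base windows.

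The TPM of Lefty1 was 0.15, 0.36 and 0.08 in DMSO (replicates A, B and C), 0.13, 0.92 and 1.36 in AA, and 0.06, 0.25 and 0.44 in 2i. In AA+2i it was 2.02, 1.31 and 3.59, above all DMSO and 2i libraries but overlapping AA, in which replicate A alone was at the DMSO level. The mean of AA+2i, 2.31 ± 1.17 (SD, n = 3), was 11.7-fold that of DMSO, 0.197 ± 0.146, which rests on 15.8 counts over its 3 libraries. Against DMSO, Lefty1 had log2 fold changes of 3.60 (SE 0.85, adjusted p = 0.0252) in AA+2i, 1.94 (SE 0.85, adjusted p = 0.494) in AA and 0.40 (SE 0.97, adjusted p = 0.836) in 2i. The call with AA+2i was lost without DMSO A, DMSO B, DMSO C, AA+2i A or AA+2i C (adjusted p from 0.0517 to 0.0967), with log2 fold changes from 2.99 to 4.41 over the 12 single omissions. Leaving out replicate letter B or letter C also lost this call (adjusted p from 0.212 to 0.252). Lefty1 also has a high GC content (58.6%, above 90.9% of the tested genes), and the smoothed deviation there ran from −1.47 in DMSO A and −1.25 in AA A to 0.95 in AA+2i C. With the GC curves taken out the change with AA+2i was 2.92 (SE 0.50, adjusted p = 0.00186).

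For Lefty2 the highest group was AA. Its TPM was 0.40, 0.56 and 0.20 in DMSO, 1.84, 1.33 and 2.11 in AA, 0.20, 0.10 and 0.14 in 2i, and 1.06, 1.12 and 0.83 in AA+2i. The AA libraries lay above all others, those of AA+2i came next, and DMSO and 2i met at 0.20. The means were 0.387 ± 0.180 in DMSO and 1.76 ± 0.396 in AA, a 4.55-fold rise, with 1.00 ± 0.153 in AA+2i and 0.147 ± 0.0503 in 2i. The log2 fold changes of Lefty2 against DMSO were 2.17 (SE 0.36, adjusted p = 0.0145) with AA, 1.54 (SE 0.36, adjusted p = 0.0239) with AA+2i and −1.30 (SE 0.42, adjusted p = 0.127) with 2i. The call with AA was lost without DMSO A or AA C (adjusted p 0.0513 and 0.0646) and in the model of AA and DMSO alone (0.210). That with AA+2i was lost without DMSO A, DMSO C or any 1 of the AA+2i libraries (0.0521 to 0.0700) and in the model of AA+2i and DMSO alone (0.0914). Both of these calls were also lost without any 1 replicate letter. The difference between the 2 Lefty genes was not tested.

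Otx2 (chr14:49277354-49287319, minus strand) had the largest log2 change with AA of the 7 genes. It codes for a homeodomain transcription factor that acts in the exit from naive pluripotency and later in the forebrain. In DMSO its TPM was 3.66, 4.58 and 8.46 in A, B and C, and in AA it was 58.6, 55.8 and 91.9. In 2i the TPM of Otx2 was 1.07, 1.26 and 1.98, and in AA+2i 12.4, 14.6 and 15.1. No 2 of the 4 groups overlapped. The mean was 12.3-fold higher in AA (68.7 ± 20.1, n = 3) than in DMSO (5.57 ± 2.55), 3.87-fold lower in 2i (1.44 ± 0.480) and 2.53-fold higher in AA+2i (14.1 ± 1.42). The log2 fold changes were 3.65 (SE 0.42, adjusted p = 0.00284) with AA, −1.76 (SE 0.41, adjusted p = 0.0377) with 2i and 1.54 (SE 0.39, adjusted p = 0.0359) with AA+2i. All 3 letters gave the same direction in each, with log2 CPM differences of 3.85, 3.79 and 3.42 for AA and of −1.68, −1.44 and −1.87 for 2i.

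The rise of Otx2 with AA passed without any 1 of the 12 libraries (adjusted p of at most 0.0209). Otx2 lost this call without replicate letter B (0.436) and in the model of AA and DMSO alone (0.0940). Its fall with 2i was less secure, since the call held only without DMSO A, AA A, AA C or 2i C. It was lost in the other 8 single omissions, which were those of DMSO B, DMSO C, AA B, 2i A, 2i B and each AA+2i library (0.0505 to 0.158), with the log2 fold change between −2.11 and −1.26, and in the model of 2i and DMSO alone (0.150). The fall was also lost without any 1 replicate letter (0.0740 to 0.469) and with 10 counts required in every library (0.052). The rise with AA+2i was lost without DMSO A, DMSO B, AA B, 2i B or any AA+2i library (0.0543 to 0.131), with log2 fold changes between 1.34 and 2.04, and in the model of AA+2i and DMSO alone (0.0752). Without letter A or letter B this rise was lost as well (0.0915 to 0.339).

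Fgf5 (chr5:98683203-98706049, plus strand, with 3 exons), a growth factor gene of the primed epiblast, was near the limit of detection outside AA. Its TPM was 0.29, 0.11 and 0.43 in DMSO, 1.38, 1.05 and 3.68 in AA, and 0.12, 0 and 0.03 in AA+2i. In 2i no count of Fgf5 was found in any of the 3 libraries. The AA libraries were therefore the highest and the 2i libraries the lowest, with no overlap of either with DMSO, and the 3 AA+2i libraries held 4.15 counts in all. A limit of 3 counts over the 2i group corresponds to 0.0367 TPM. The mean TPM of Fgf5 was 7.54-fold that limit in DMSO and 55.5-fold that limit in AA. These ratios bound the 2i side only and leave out the spread of the DMSO and AA libraries. Against DMSO, the log2 fold change with AA was 2.99 (SE 0.80, adjusted p = 0.157), that with AA+2i was −2.23 (SE 1.10, adjusted p = 0.236), and the adjusted p with 2i was 0.111. Fgf5 had 10 counts or more only in the AA libraries, so it passed the count filter through the group in which it was high and had to differ there, and no test of it against AA is read as support. In other fits the adjusted p with AA was 0.0253 in DESeq2, 0.0362 in limma on log2(TPM + 1) and 0.0494 with the GC curves taken out. These values with AA fall under the same limit and are not counted. The adjusted p with 2i was 0.00839 in DESeq2, 0.505 in limma and 0.104 with the GC curves.

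Pou3f1 (chr4:124334896-124337899, plus strand, with 1 exon), which codes for the POU factor Oct6, was low in all groups. In DMSO its TPM was 0.49, 0.34 and 0.76, in AA 0.31, 0.47 and 2.21, in 2i 0.06, 0.11 and 0.27 and in AA+2i 0.10, 0.11 and 0.49. Only the 2i libraries were clear of DMSO, all 3 below it, and the AA mean of 0.997 ± 1.05 (SD, n = 3) rested on replicate C. In the model of all 4 groups none of the changes against DMSO passed: the log2 fold change was 0.98 (SE 0.85, adjusted p = 0.931) with AA, −1.63 (SE 0.99, adjusted p = 0.466) with 2i and −0.85 (SE 0.92, adjusted p = 0.532) with AA+2i. Without AA C the value for AA was −0.36. At 61.5%, above 97.6% of the tested genes, Pou3f1 has the highest GC content of the 7, and the smoothed deviation at that content ranged from −1.93 in DMSO A to 1.33 in AA+2i C. With the GC curves taken out, the change with 2i was −2.52 (SE 0.88, adjusted p = 0.0901), that with AA+2i −2.18 (SE 0.81, adjusted p = 0.0807) and that with AA 0.25 (SE 0.73, adjusted p = 0.924).

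**Figure D2:**
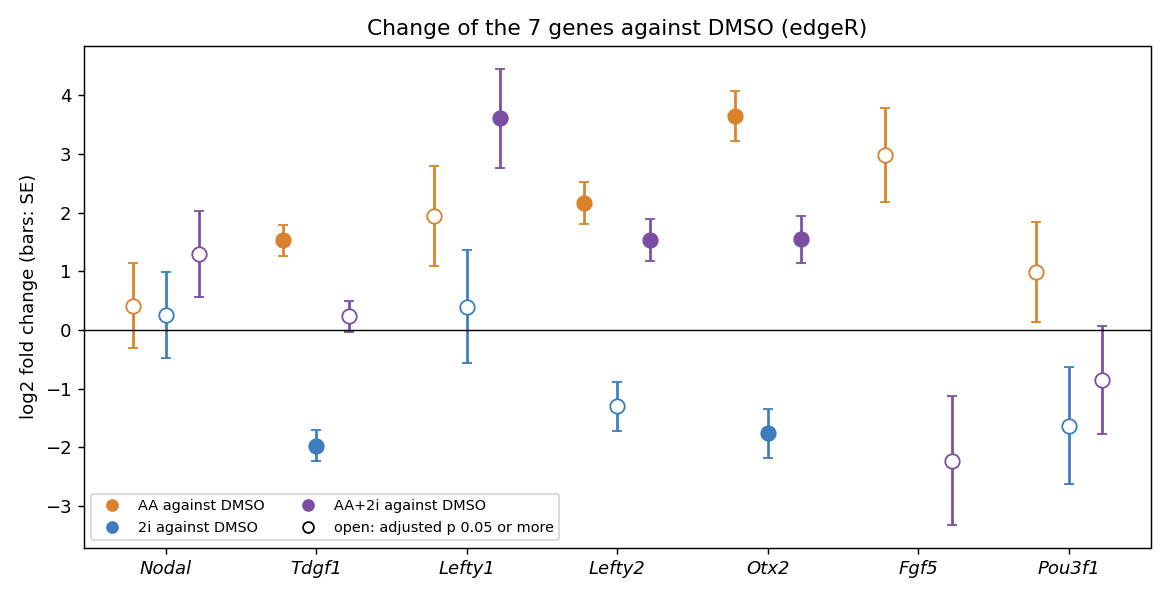
Log2 fold change against DMSO (y axis, bars are SE from edgeR) of the 7 genes (x axis) for AA, 2i and AA+2i. Filled points passed an adjusted p of 0.05, open points did not, and Fgf5 with 2i is left out because all 3 of its 2i libraries were at 0. Otx2 stands at 3.65 with AA and −1.76 with 2i, and Tdgf1 at 1.53 and −1.97.

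Counted over the 7 genes, AA raised 3 and lowered 0, where 0.866% of all tested genes were called higher and 0.47% lower. With 2i, 0 were higher and 2 lower, where 1.59% of all tested genes were higher and 2.83% lower, and with AA+2i 3 were higher and 0 lower, where the shares were 3.93% and 4.41%. The 7 genes had a median log2 fold change of 1.94 in AA, −1.63 in 2i and 1.30 in AA+2i, beside −0.01, −0.02 and −0.02 over all tested genes. The median in AA includes Fgf5, which entered the test through the AA libraries, and is not read as support. With Fgf5 at its bound the median with 2i was also −1.63. These 3 comparisons share the DMSO libraries, and the 7 genes were chosen with earlier results of the same data known, so that the counts describe them and are no independent test.

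Adding AA to cells that also received 2i was read from AA+2i against 2i, which compares none of the libraries compared in AA against DMSO, although both share 1 fit. Otx2, Lefty2 and Tdgf1 passed here as well, so that 3 of the 7 were higher and 0 lower, where 0.761% of all tested genes were higher and 0.149% lower. Otx2 rose by 3.31 on the log2 scale (SE 0.43, adjusted p = 0.00538), which is 9.79-fold in mean TPM. Lefty2 rose by 2.84 (SE 0.41, adjusted p = 0.00762) and Tdgf1 by 2.20 (SE 0.27, adjusted p = 0.00429). The value for Lefty1 was 3.21 (SE 0.84, adjusted p = 0.116), with all AA+2i libraries above all 2i libraries, and for Nodal it was 1.04 (SE 0.72, adjusted p = 0.905). The value of Pou3f1 was 0.78 (SE 1.03, adjusted p = 0.969), and Fgf5 was at or near the limit in both groups, so no fold is given. The median of the other 6 genes was 2.52, beside 0.00 over all tested genes. Of the 3 calls, that of Lefty2 was lost without 2i B (adjusted p = 0.0676), and those of Otx2 and Tdgf1 passed without any 1 of the 12 libraries. All 3 were lost without any 1 replicate letter. The fits without letter B or letter C called 0 of all tested genes in this comparison. With the GC curves taken out, Lefty1 passed as well, at 2.89 (SE 0.48, adjusted p = 0.00558), as it did in DESeq2 (adjusted p = 0.0131) and in limma on log2(TPM + 1) (adjusted p = 0.0483).

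Adding 2i to cells that also received AA lowered 2 of the 6 genes other than Fgf5 and raised 0, where 3.29% of all tested genes were lower and 2.81% higher. Otx2 fell by 2.10 on the log2 scale (SE 0.40, adjusted p = 0.0100), a mean TPM 4.89-fold lower than in AA, and Tdgf1 fell by 1.30 (SE 0.26, adjusted p = 0.0146), 2.79-fold lower. Fgf5, which entered the test through the AA libraries, had 220 counts over the 3 AA libraries and 4.15 over those of AA+2i, and its test (adjusted p = 0.0146) is not counted. For Lefty2 the value was −0.63 (SE 0.33, adjusted p = 0.385), although all AA+2i libraries lay below all AA libraries. It was −1.83 (SE 0.89, adjusted p = 0.335) for Pou3f1, 1.67 (SE 0.73, adjusted p = 0.270) for Lefty1 and 0.88 (SE 0.72, adjusted p = 0.585) for Nodal. With the GC curves taken out, Pou3f1 passed as well, at −2.43 (SE 0.74, adjusted p = 0.0471). The median of the 7 was −1.30, beside −0.01 over all tested genes, but it includes Fgf5 and is not read as support. The call of Otx2 was lost without AA+2i A (0.0532) and that of Tdgf1 without AA C or any AA+2i library (0.0507 to 0.0728). Without replicate letter B the call of Otx2 was lost as well (0.268), and that of Tdgf1 without any 1 letter (0.113 to 0.151).

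**Figure D3:**
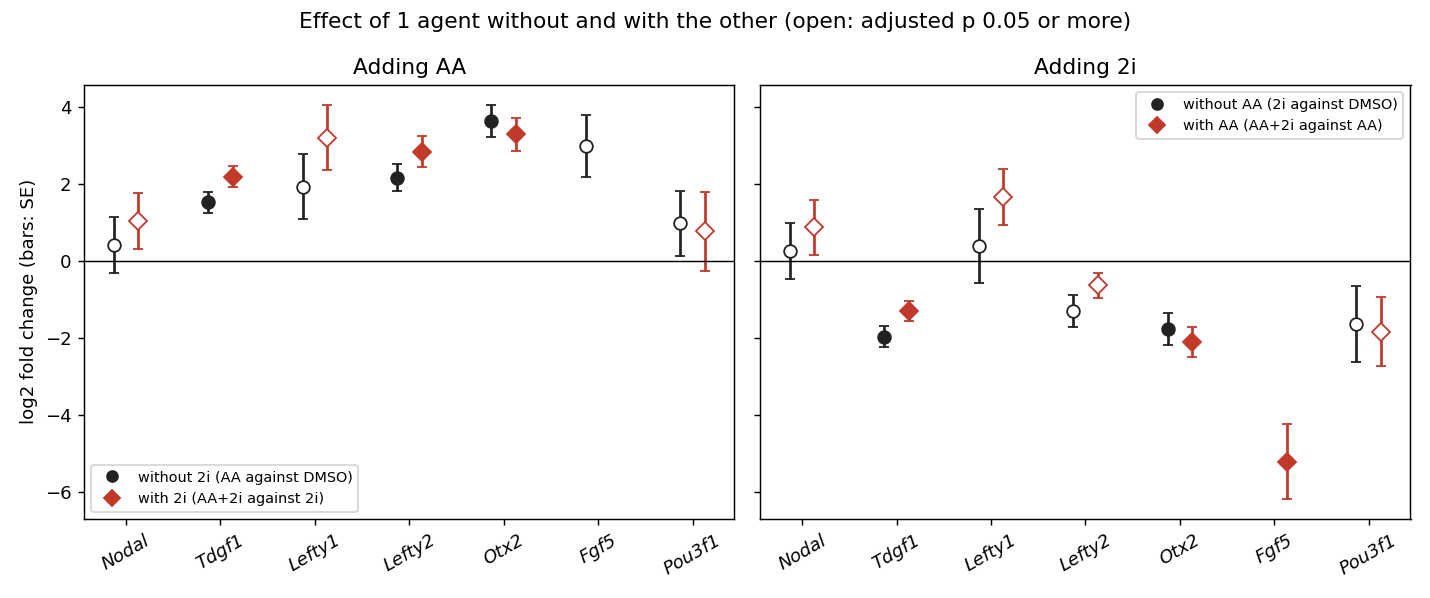
Log2 fold change (y axis, bars are SE from edgeR) of the 7 genes (x axis) on adding AA (left) and on adding 2i (right), without the other agent (black circles) and with it (red diamonds). Filled symbols passed an adjusted p of 0.05, and Fgf5 is left out where the reference or the treated group was at 0 in all libraries. For Otx2 the AA values are 3.65 without and 3.31 with 2i, and the 2i values −1.76 without and −2.10 with AA.

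Whether AA acted to a different extent in the presence of 2i was tested by the interaction term, which subtracts the log2 changes of both single agents from that of the combination. It was called for 0 of the 7 genes, where 2 of the 13400 tested genes, or 0.0149%, were called higher, none was called lower, and 309 had an unadjusted p under 0.05. None of the 7 had an unadjusted p under 0.05. DESeq2 called 22 genes higher and 4 lower, and limma called 9 and 4 on log2(TPM + 1) and 3 and 0 on log2(TPM + 0.1), with none of the 7 among them. For the 3 genes raised by AA the estimate was −0.34 (95% interval −1.58 to 0.90) for Otx2, 0.67 (−0.14 to 1.48) for Tdgf1 and 0.68 (−0.49 to 1.84) for Lefty2. The intervals leave room for departures of more than 2-fold in Otx2, Tdgf1 and Lefty2.

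The single agents were also set against each other. In AA against 2i, 3 of the 6 genes other than Fgf5 were higher and 0 lower, where 5.88% of all tested genes were higher and 3.57% lower. The log2 difference was 5.41 (SE 0.47, adjusted p = 0.00011) for Otx2, 47.9-fold in mean TPM, 3.50 (SE 0.29, adjusted p = 7.9e-05) for Tdgf1, 12.6-fold, and 3.47 (SE 0.40, adjusted p = 0.000415) for Lefty2, 12-fold. For Fgf5, high only in AA, the test (adjusted p = 0.0045) is not counted and the ratio of the AA mean to the 2i limit given above stands. The median of the 7 was 3.47, also with Fgf5 at its bound, beside 0.00 over all tested genes, and with Fgf5 in it is not read as support. These 3 calls held without any 1 of the 12 libraries, and that of Lefty2 was lost without replicate letter B (adjusted p = 0.0574). With the GC curves taken out, Lefty1 (1.62, adjusted p = 0.0424) and Pou3f1 (2.77, adjusted p = 0.0325) passed as well.

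In order of level, Tdgf1 came first in all 4 groups and did not overlap the next gene. In DMSO, Otx2 (5.57 TPM) and Nodal (2.93) followed with overlapping ranges, and each further neighbour in the order Pou3f1, Lefty2, Fgf5 and Lefty1 overlapped as well. In AA, Otx2 was clear of Nodal, and the order below it was Nodal, Fgf5, Lefty2, Pou3f1 and Lefty1, again with overlaps between neighbours. In 2i, Nodal (2.99 TPM) stood above Otx2 (1.44) without overlap. In AA+2i, neighbours in the order Tdgf1, Otx2, Nodal, Lefty1, Lefty2 and Pou3f1 did not overlap, and Pou3f1 overlapped Fgf5.

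The rest of the pathway was read from lists of ligands, receptors and transducers that were also chosen with earlier results known. The shares of all tested genes called in each comparison, given above, stand beside the counts of these lists as well. Among the ligands, Gdf3, a relative of Nodal that uses the same receptors and co-receptor, was the only 1 of 3 tested genes (Nodal, Gdf3 and Inhbb) to pass. Its TPM was 2.12, 4.34 and 4.98 in DMSO, 29.9, 45.1 and 58.3 in AA, 3.19, 3.20 and 3.52 in 2i, and 38.3, 40.4 and 44.6 in AA+2i. Libraries with AA lay above all those without it, whether or not 2i was present. For Gdf3 the log2 fold change against DMSO was 3.59 (SE 0.37, adjusted p = 0.00146) in AA, 3.65 (SE 0.37, adjusted p = 0.000353) in AA+2i and −0.01 (SE 0.34, adjusted p = 0.991) in 2i, and it was 0.07 (SE 0.33, adjusted p = 0.924) in AA+2i against AA.

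Of the receptor genes, 3 of 4 were tested (Acvr1b, Acvr2a and Acvr2b) and 0 passed in AA, 2i or AA+2i against DMSO, with list medians of −0.45, −0.26 and −0.01. Both convertase genes, Furin and Pcsk6, whose products cleave the Nodal precursor, were tested and neither passed. Among 8 genes for Smads, their partners and inhibitors, 0 passed with AA or 2i and 1 with AA+2i, in which Smad3 fell by 0.90 (SE 0.20, adjusted p = 0.0186). Foxh1, which was named after its values were seen, had a TPM of 0.52, 6.70 and 9.18 in DMSO and of 2.66, 15.7 and 23.3 in AA. In 2i the TPM of Foxh1 was 7.87, 8.88 and 11.9, and in AA+2i 28.3, 20.9 and 27.6. Its log2 fold change with AA+2i against DMSO was 2.45 (SE 0.85, adjusted p = 0.108). Foxh1 was lowest in DMSO A and AA A, and no value with the GC curves taken out is given for it. Of 2 co-receptor genes only Tdgf1 was expressed enough to be tested, with a mean TPM of Cfc1 of at most 0.13 in any group. Of the antagonists, Dand5 and Fst were tested beside the Lefty genes and did not pass in any of these comparisons, and Cer1 was too low to test.

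Among target genes of Nodal, none but the Lefty genes passed as higher against DMSO. Of 11 listed targets, Nodal itself included, 6 were tested: with AA 1 was higher (Lefty2) and 0 lower, with 2i 0 were higher and 1 lower, and with AA+2i 2 were higher (the Lefty genes) and 1 lower. The lower gene was Eomes, a T-box gene of the streak and endoderm, whose TPM went from 2.26, 2.18 and 2.68 in DMSO to 1.06, 1.07 and 0.97 in 2i and 0.97, 0.86 and 0.92 in AA+2i. It fell by 1.03 (SE 0.23, adjusted p = 0.0293) with 2i and by 1.16 (SE 0.23, adjusted p = 0.0106) with AA+2i, and with AA its value was −0.20 (SE 0.22, adjusted p = 0.950). Nodal, Skil and Smad7 did not pass, and the other listed targets stayed below the count filter.

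Of 16 listed primed and formative epiblast genes 14 were tested. With AA 1 was higher (Otx2) and 0 lower, with a list median, Fgf5 included, of 0.39 beside −0.01 over all genes. With 2i 0 were higher and 1 lower (Otx2), with a median of −0.45, and with AA+2i 1 was higher (Otx2) and 1 lower, with a median of −0.54. The lower gene was Cdh2, which codes for N-cadherin (log2 fold change −1.08, adjusted p = 0.0354). In AA+2i against AA, Otx2, Lin28a (−2.78, SE 0.62, adjusted p = 0.0220) and the ETS factor gene Etv5 (−0.80, SE 0.19, adjusted p = 0.0279) were lower. Of the 14, 0 were higher, and over all tested genes 3.29% were lower and 2.81% higher. Fgf5 was lower as well, but its test against AA is not counted, for the reason given above. The list median, with Fgf5 included, was −0.87, beside −0.01 over all genes, and is not read as support. Dnmt3a, Dnmt3b, Zic2 and Zic5 did not pass against DMSO in any treatment. In AA against 2i, Otx2, Dnmt3a (0.77, adjusted p = 0.0161), Dnmt3b (1.57, adjusted p = 0.049) and Etv5 (0.89, adjusted p = 0.0111) were higher. Cdh2 was lower there (−1.30, adjusted p = 0.0122), and the test of Fgf5 is not counted. Of all tested genes 5.88% were higher and 3.57% lower in that comparison. Utf1, named after its values were seen, had a TPM of 0.18, 2.63 and 14.82 in AA and of at most 0.20 in DMSO, and with this spread its log2 fold change of 5.87 (SE 1.70, adjusted p = 0.171) did not pass.

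**Figure D4:**
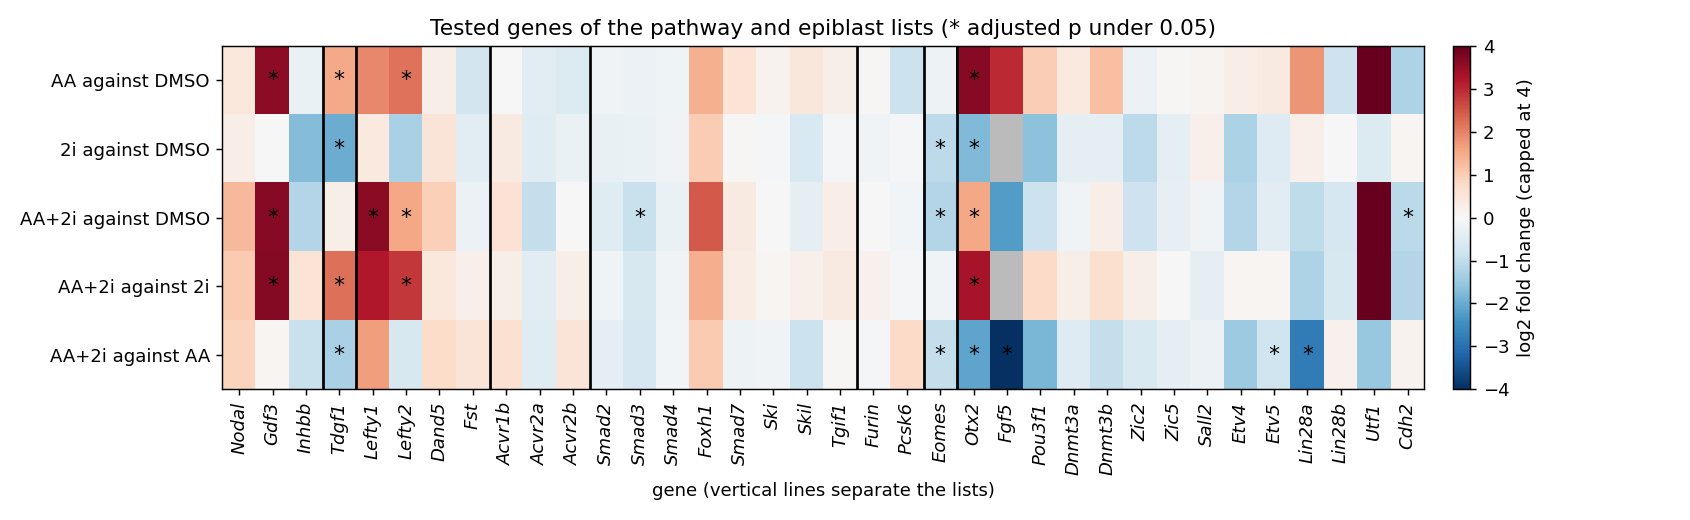
Log2 fold change (colour, capped at 4 in either direction) of the tested genes of the pathway and epiblast lists (x axis, each gene once, with vertical lines between lists) in 5 comparisons (y axis). Asterisks mark an adjusted p under 0.05 in edgeR, and grey cells are those of Fgf5 in which the 2i libraries were at 0. Gdf3, Tdgf1, Lefty2 and Otx2 carry the asterisks of AA against DMSO, and receptor and convertase genes carry none.

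Naive genes and the direct readouts of the inhibitors were read beside these. Of 12 tested naive pluripotency genes, 2 were higher with AA (Nanog and Zfp42), 1 was higher and 1 lower with 2i (Tcfcp2l1 and Fgf4), and 8 were higher and 1 lower with AA+2i, with list medians of 0.85, 0.30 and 2.70. Among the 8, Dppa3 and Prdm14 had 10 counts or more only in libraries with AA, and Tbx3 only in treated libraries. The tests of Dppa3, Prdm14 and Tbx3 against DMSO are therefore not read as support. Zfp42, also known as Rex1, rose with AA by 2.77 (adjusted p = 0.00533) and with AA+2i by 1.71 (adjusted p = 0.0137). Of 8 ERK feedback genes, 0 changed with AA and 2 fell with 2i, Dusp6 by 3.00 (SE 0.21, adjusted p = 4.6e-05) and Spry4 by 1.22 (adjusted p = 0.00372), and 3 fell with AA+2i. Of 7 Wnt feedback genes 0 changed with AA and 3 rose with 2i (Axin2, Nkd1 and Sp5), with Axin2 at 5.83 (SE 0.77, adjusted p = 0.00202), and 5 rose with AA+2i. Sp5, and Cdx1 among the 5, had 10 counts or more only in libraries with 2i. Both passed the count filter where they were high, so their tests are not read as support.

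Markers of other cell types were read in the same libraries. Of 13 fibroblast and feeder markers, Lum was at 0 in all 12 libraries, and the summed TPM of the list was 12.3 to 18.8 in DMSO, 14.3 to 22.5 in AA, 8.35 to 9.19 in 2i and 9.12 to 13.4 in AA+2i. Thy1, named after its values were seen, had a mean TPM of 5.13 in DMSO, 12.6 in AA, 1.15 in 2i and 3.80 in AA+2i, so that it was highest in AA and lowest in 2i, as Tdgf1 and Otx2 were. Most of the list did not follow it: the list median with AA was −0.63. From DMSO to AA the mean TPM was 2.36 and 1.33 for Twist1, 3.13 and 1.63 for Prrx1 and 1.89 and 1.08 for Snai2, none of which passed. Pdgfra was also highest in AA, with mean TPM of 0.193 in DMSO, 0.48 in AA, 0.143 in 2i and 0.0833 in AA+2i. Its value with AA was 1.33 (SE 0.50, adjusted p = 0.3585). In AA+2i against AA 1 gene of the list was lower (Pdgfra, −2.29, adjusted p = 0.0283) and 1 higher (Col3a1, 2.33, adjusted p = 0.0193). Over all tested genes 3.29% were lower and 2.81% higher there. Dcn and the collagen gene Col1a1 had mean TPM of at most 0.173 and 1.64 in any group. Of the fibroblast genes tested, 10 in all, 0 passed with AA or 2i against DMSO, and 1 rose with AA+2i (Col3a1). In AA against 2i, Thy1 was higher (3.31, SE 0.54, adjusted p = 0.0027) and Postn lower (−3.56, adjusted p = 0.0438). There 5.88% of all tested genes were higher and 3.57% lower. Postn had 10 counts or more only in libraries without AA, and its test is not counted. Of 8 endoderm markers Ttr was at 0 in all libraries and the sum stayed between 6.01 and 11.2, nearly all of it Hhex. The summed neural markers were 71.7 to 90.2 in DMSO and 52.6 to 74.2 in the treated groups, with Sox1 and Nes holding most of it, and Nes fell with AA+2i (−1.01, adjusted p = 0.00557). The part of such cells in the changes of the 7 genes was not tested.

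The genes whose profiles over the 12 libraries lay nearest to those of the members were sought for the 3 members with at least 10 counts in every library, as the root mean square difference of centred log2 CPM. For Tdgf1, whose own values had a root mean square of 1.27 around their mean, the nearest were Ooep (0.193), Gsta1 (0.260) and Slc27a2 (0.332). Ooep had mean TPM of 34.9 in DMSO, 120 in AA, 8.63 in 2i and 37.1 in AA+2i. For Otx2, with 2.02 around its mean, they were Pirt (0.490), Alox15 (0.527) and Dppa2 (0.580), of which Dppa2 had mean TPM of 0.607, 15.3, 0.193 and 4.23 in the same order. For Nodal, with 1.00 around its mean, they were Gyltl1b (0.243), Amigo3 (0.259) and 2410002I01Rik (0.272), and all 3 were lowest in DMSO A and highest in AA+2i C, as Nodal was. The profiles share library depth and the GC curves of the libraries, and nothing further was tested on them.

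**Figure D5:**
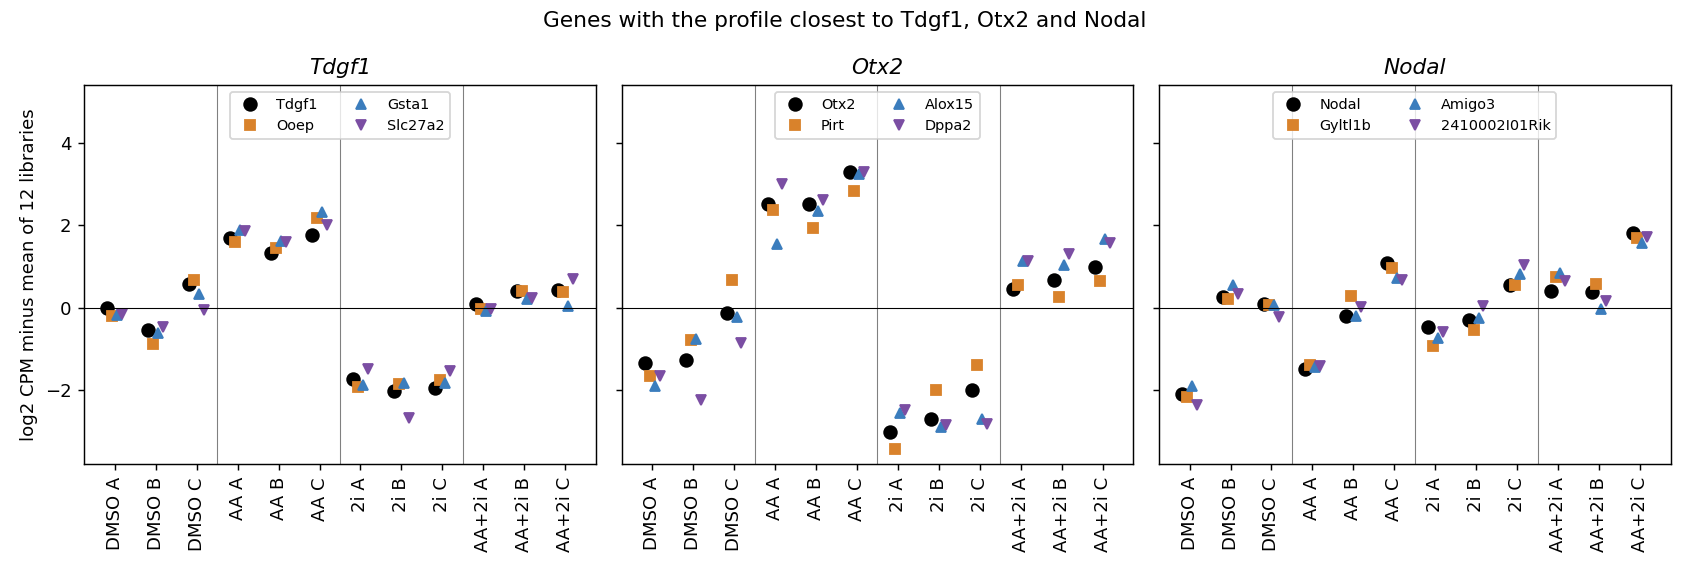
Log2 CPM less the mean of the 12 libraries (y axis) for Tdgf1, Otx2 and Nodal (black circles) and the 3 genes with the nearest profile of each (coloured symbols) in the 12 libraries (x axis, grey lines between treatments). Tdgf1 and Otx2 separate by treatment, whereas Nodal is low in DMSO A and AA A and high in AA+2i C.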

How the data were processed

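RNA from 12 cultures (3 in each of 4 groups) was sequenced as single-end TruSeq libraries. Per the methods of the study, the authors trimmed and quality-filtered the reads, aligned them to RefSeq mRNA genes of mm9 with Bowtie2 (Bowtie in the submitters' processing notes) and quantified them with RSEM (1.2.4 in those notes) without strand. The deposited expected counts, TPM and FPKM are the authors' RSEM values, not normalized between libraries. FPKM served only to recompute 1 malformed TPM cell (40.6). Since reads were not counted by strand, antisense transcripts cannot be told apart.

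The expected counts were rounded, scaled by relative log expression factors and tested with edgeR 4.0.16 (R 4.3.3) in 1 model of the 4 groups with 8 residual degrees of freedom, after a filter of 10 counts in 3 libraries. Log2 CPM used a prior count of 2. In place of the study's own empirical Bayes test, DESeq2 1.42.0 and limma 3.58.1 were alternatives, beside TMM scaling, other filters, fits of only the groups compared, leaving out libraries or replicate letters, a replicate block and a GC curve per library (loess, span 0.4, known for 13295 tested genes). The steps were tested on simulated data. A fitted fold change of a gene at 0 in a group is no bound, so for Fgf5 a limit of 3 counts over the group was used, which covers counting error only. Gene positions and GC content were read from GENCODE vM1 (mm9). Tables and figures were made with Python 3.11.15, numpy 2.4.6, pandas 2.3.3 and matplotlib 3.10.9. The members, gene lists and tests were chosen with earlier results of these data known. Named genes are the 7 members, list genes that passed in a comparison against DMSO or of AA+2i with a single agent, and the 3 nearest profiles of each member with 10 counts in every library. Other list genes were named after their values were seen. Some items are not reported here.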

Additional observations from a re-analysis of the deposited data

How the results depend on the processing

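The 7 genes kept their calls under TMM scaling and without the count filter. Of the 7, edgeR's main model called 2 with 2i, 3 with AA, 3 with AA+2i, 3 in AA+2i against 2i, 3 in AA+2i against AA and 4 in AA against 2i, with Fgf5 counted in the last 2. DESeq2 called 3 with 2i, 4 with AA and 3 with AA+2i, and limma on log2(TPM + 1) called 2, 4 and 3. In both, the 4 with AA include Fgf5, whose test with AA is not counted above. With 10 counts required in every library only 3 of the 7 were tested, and the calls were 1 with 2i, 1 with AA+2i and 2 in AA against 2i. With only the groups compared they were 1 with 2i, 0 with AA and 1 with AA+2i, and this was not run for the interaction. Of all 13400 genes these fits called 69 higher and 118 lower with 2i and 310 and 291 with AA+2i. With AA they called 0 and 0, where the main model called 116 and 63. Leaving out a library gave 1 to 2 calls with 2i, 1 to 3 with AA, 0 to 3 with AA+2i and 2 to 3 in AA+2i against 2i. It gave 1 to 3 in AA+2i against AA and 3 to 4 in AA against 2i. Leaving out a letter gave 0 calls in AA+2i against 2i, 2 to 3 in AA against 2i and 0 to 1 in the other comparisons between groups. Those letter fits also called fewer of all genes. With AA they called 25 higher without A, 0 without B and 4 without C, where the main model called 116. Fgf5 left the test when a letter was left out.

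Same letters paired the samples only in part, since 15 of 18 same-letter pairs had a correlation of deviations over 0.1 (from −0.593 to 0.895), so the block is given as an alternative only. With the replicate block 4 of the 7 were called with 2i, and with the block and the GC curves 5 with 2i, 5 with AA+2i and 5 in AA+2i against AA. These fits also called more of all genes: with 2i 213 higher and 379 lower of 13400 in the main model, 686 and 1096 with the block, and 1397 and 1889 of 13295 with the block and the GC curves, which with AA+2i called 2283 and 2526 against 526 and 591, and in AA+2i against AA 1677 and 1989 against 376 and 441. Among the calls that the block added were Pou3f1 with 2i (−1.78, adjusted p = 0.0439) and Fgf5 with 2i (0.0269). Fgf5 with AA (0.0210) also passed there and is not counted, for the reason given above. With the GC curves as well, the added calls held Pou3f1 with 2i (−2.48, 0.0154) and AA+2i (−2.27, 0.0104) and Tdgf1 with AA+2i (0.59, 0.0119). In that fit the 5 in AA+2i against AA held Lefty1 as higher (1.29, adjusted p = 0.01975). They also held Fgf5, whose test against AA is not counted.

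Signs turned only for values that did not pass. With 2i, Nodal ran from −0.19 to 0.78 and Lefty1 from −0.55 to 1.22 over the omissions, and Lefty1 was −0.0014 with the block and the GC curves. With AA, Nodal ran from −0.44 to 0.97 and Pou3f1 from −0.36 to 1.42. With AA+2i, Tdgf1 ran from −0.047 to 0.57 against DMSO and Pou3f1 from −0.57 to 1.56 against 2i. The interaction of Lefty2 ran from −0.051 to 1.15, with −0.19 in limma on log2(TPM + 1), and that of Otx2 from −0.84 to 0.011. The causes were not tested. Few counts stand behind Lefty1, Lefty2, Fgf5 and Pou3f1, whose counts in 2i summed to 12.8, 11.2, 0 and 14.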
